A study of Homo sapiens with 6 samples.

Results

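Cells of MDA-MB-231, a human breast cancer line of the triple-negative kind, were grown in 6-well plates with serum and treated for 24 h with vehicle (DMSO) or with disulfiram and copper (DSF/Cu, 0.2 µM). Each group held 3 repeats, each the pooled cells of 3 wells, and poly(A) RNA was sequenced as paired-end libraries. All libraries thus come from 1 line. The labels do not say whether 0.2 µM refers to disulfiram or to copper, and no sample had either alone. Nothing in the labels ties the repeats to separately grown cultures, so the p-values speak only for the spread of these 3 against 3 samples, part or all of which may be technical. In bulk RNA, fewer cells that express a gene and less of its RNA per cell cannot be told apart. The genes described here are the ABC transporters, taken as rows whose symbol is ABC, a subfamily letter from A to G and a number, with a protein-coding transcript. The rule found 46 of the 58825 rows in the table: 12 ABCA, 9 ABCB, 11 ABCC, 4 ABCD, 1 ABCE, 4 ABCF and 5 ABCG. They carry 45 symbols, because *ABCF2* names both the gene itself and a read-through gene. *ABCC13*, which matched by symbol but has no protein-coding transcript, was left out.

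ABC (ATP-binding cassette) proteins use the energy of ATP to move molecules across membranes. A working transporter joins a pair of membrane domains to a pair of ATP-binding domains, in 1 chain (a full transporter) or by pairing of 2 shorter chains. ABCA proteins mostly carry lipids, ABCB proteins work at the cell surface, in the lysosome and in mitochondria, ABCC proteins include the exporters of glutathione, glucuronide and sulfate conjugates, and most ABCD proteins carry fatty acids into peroxisomes. ABCE and ABCF proteins have no membrane domain and act on ribosomes. In cancer cells the family is best known for pumping out drugs, above all through *ABCB1* (P-glycoprotein), *ABCC1* (MRP1) and *ABCG2* (BCRP).

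The 250 bases before the RefSeq start are shown for 3 members that the results below turn on, a pair that rose and 1 that fell, with metal response element cores (TGCGCNC or TGCACNC on either strand) in capitals. They are read 5′ to 3′ on the gene's strand from RefSeq's promoters on GRCh38.p14: *ABCA1* at chr9:104928156-104928405 (- strand), *ABCC2* at chr10:99782390-99782639 (+ strand) and *ABCB10* at chr1:229558708-229558957 (- strand).
ABCA1: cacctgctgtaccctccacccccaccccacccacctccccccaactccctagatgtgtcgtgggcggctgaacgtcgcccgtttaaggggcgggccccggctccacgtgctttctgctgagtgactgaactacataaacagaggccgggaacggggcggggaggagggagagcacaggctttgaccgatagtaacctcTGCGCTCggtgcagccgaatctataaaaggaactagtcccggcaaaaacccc
ABCC2: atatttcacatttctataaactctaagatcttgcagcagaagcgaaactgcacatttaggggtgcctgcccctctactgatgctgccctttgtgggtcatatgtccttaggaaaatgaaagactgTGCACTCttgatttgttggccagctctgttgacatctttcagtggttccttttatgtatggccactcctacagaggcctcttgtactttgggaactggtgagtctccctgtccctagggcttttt
ABCB10: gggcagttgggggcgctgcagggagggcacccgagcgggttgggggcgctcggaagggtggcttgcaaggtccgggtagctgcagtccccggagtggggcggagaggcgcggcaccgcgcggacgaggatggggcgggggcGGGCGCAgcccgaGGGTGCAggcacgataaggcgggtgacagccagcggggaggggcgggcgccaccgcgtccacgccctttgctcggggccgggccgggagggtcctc
The raised *ABCA1* and *ABCC2* held 1 such core each and the lowered *ABCB10* held 2. Promoters of the raised *ABCC9* and *ABCC5* and the lowered *ABCB8* held 0. Members with and without the core thus changed in both directions, and a link between core and change was not tested. RefSeq's table had 53 promoters for 35 of the 45 symbols, several genes having more than 1 start. Of these, 20 (37.7%) held the core, against 24.8% of all 35116 promoters of that length. Antioxidant response element cores (TGACNNNGC) were in 9 member promoters (17.0%, against 10.9% of all), and were absent from the 3 printed. AP-1 sites (TGACTCA or TGAGTCA) were in 1 (1.89%, against 4.20%). No member promoter held the perfect heat shock element (alternating GAA and TTC units, in 0.441% of all) or the perfect LXR direct repeat (AGGTCA units, in 0.0142% of all), and imperfect versions were not searched. G and C content was 61.6% in the *ABCA1* window, 45.6% in that of *ABCC2* and 77.2% in that of *ABCB10*, and these shares describe letters only.

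Total counts were 62165212 to 70883177 per library in DMSO and 55563223 to 61633168 after DSF/Cu. Levels are compared between genes by FPKM (fragments per length and depth, as deposited) and between groups by CPM (counts relative to library size, scaled here by TMM, which sets the bulk of genes equal between libraries). Of the markers listed for MDA-MB-231, *VIM*, *CD44*, *AXL* and *CAV1* were high (26.5 to 574 FPKM in DMSO), *ESR1*, *PGR* and *CDH1* lay below 0.05 FPKM, and *ERBB2* (6.06) and *EPCAM* (2.60) were low. *SPARC*, listed as high, was at 0.0497 FPKM. After DSF/Cu *AXL* (log2 change -0.76 ± 0.05, SE, edgeR adjusted p = 0.000139) and *VIM* (-0.27 ± 0.07, 0.0208) were lower, as were *ERBB2* and *EPCAM*. *CD44*, *CAV1* and *SPARC* were not called. Of the listed luminal markers, *KRT19* (48.6 FPKM in DMSO), *KRT18* (47.2) and *KRT8* (21.5) were called lower. *GATA3* and *FOXA1* lay below 1 FPKM and were not called. The defining markers *CD3E*, *CDH5*, *DCN*, *APOB*, *VIL1* and *CDX2* of immune, endothelial, fibroblast, liver and intestinal cells had no count in any library. Others of these lists did have counts: the immune-listed *CD68* was at 62.0 FPKM in DMSO and 52.5 after DSF/Cu and was not called. The fibroblast gene *COL1A1* rose by 1.42 ± 0.30 (log2, SE, edgeR adjusted p = 0.0115) from 0.204 FPKM, and *PDGFRB* had 0, 44 and 18 counts in DMSO and 82, 76 and 80 after DSF/Cu and was not called. *PECAM1*, *VWF*, *PTPRC*, *COL1A2*, *PDGFRA* and *ALB* had at most 56 counts in any library. Summed FPKM of the 5 fibroblast genes was 0.216 to 0.298 in DMSO and 0.590 to 0.754 after DSF/Cu, and its part in the results was not tested.

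The members most highly expressed were those that act on ribosomes. In DMSO *ABCF2* held 46.6 ± 1.48 FPKM (SD, n = 3), *ABCF1* 45.2 ± 3.16, *ABCE1* 28.9 ± 0.908 and *ABCF3* 16.1 ± 0.742. The levels of *ABCF2* and *ABCF1* did not differ beyond their spread in DMSO, nor did those of *ABCF3* and *ABCD3*. After DSF/Cu *ABCF1* led with 45.4 ± 1.24 FPKM, above *ABCF2* at 32.7 ± 0.442. Among the transporters proper, the peroxisomal *ABCD3* (15.3 ± 0.739 in DMSO) came first, then the conjugate exporter *ABCC1* (9.97 ± 0.206) and the mitochondrial *ABCB10* (8.65 ± 0.685). After DSF/Cu *ABCB10*, at 4.03 ± 0.432 FPKM, had fallen below *ABCC5* (4.63 ± 0.160). *ABCG2* was at 1.44 ± 0.151 in DMSO, and *ABCB1* had no count in any DMSO library.

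**Figure D1:**
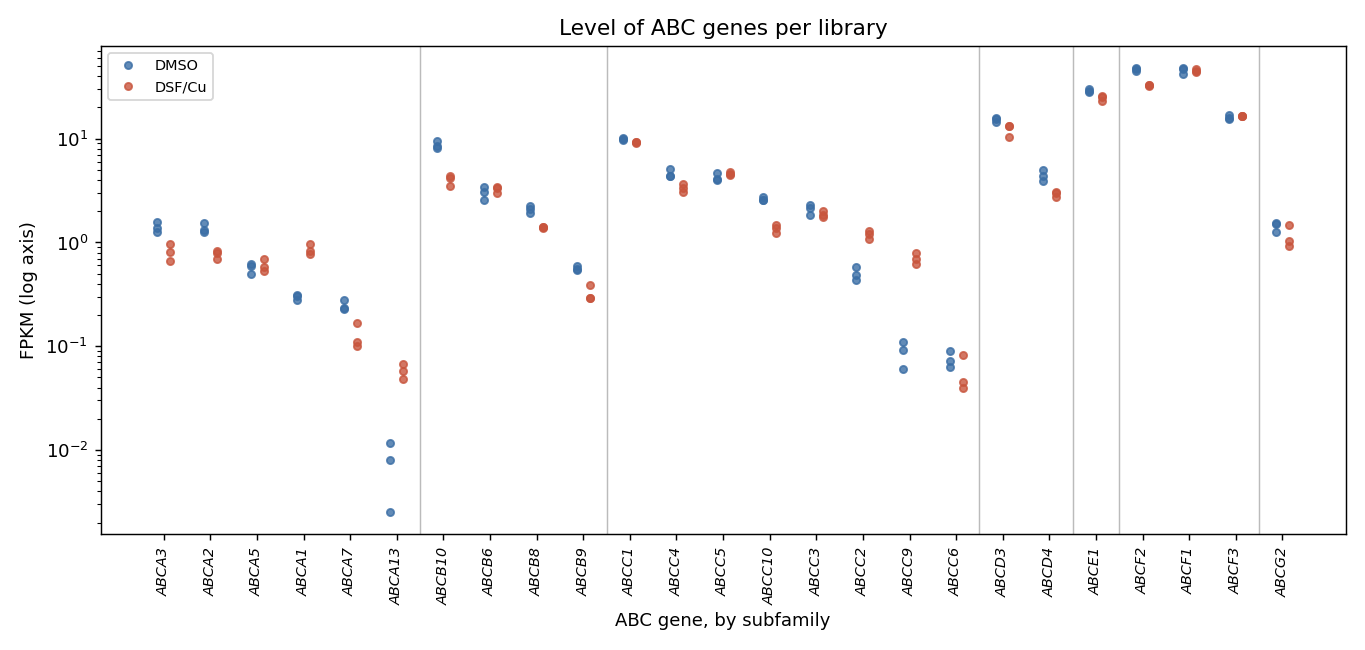
FPKM of 25 ABC genes in each library (log axis), ordered by subfamily and by level in DMSO; blue points are the 3 DMSO libraries and red points the 3 DSF/Cu libraries. The genes plotted had a mean of at least 0.05 FPKM in the higher group and a count in DMSO, and *ABCF2*, *ABCF1* and *ABCE1* sit highest in both groups.

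DSF/Cu was compared with DMSO to see how expression of each member differed after treatment. Of the 46 members, 31 had enough counts to be tested, 8 had counts below the filter and 7 had none. By edgeR's quasi-likelihood test, adjusted over all 18229 genes tested, 9 members rose, 9 fell and 13 were not called. Over all genes tested 35.2% were called (18.5% raised, 16.8% lowered), and over those with a protein-coding transcript 41.9% (20.8% raised, 21.1% lowered). Of the 9 raised, *ABCA13*, *ABCA4* and the *ABCF2* read-through gene passed the count filter only through DSF/Cu, the group where they are high, so they had to differ and their test is not used below. That leaves 6 raised and 9 lowered. Groups did not overlap for 21 of the 31, 11 with DSF/Cu above and 10 with DSF/Cu below. The same held for 51.2% of all genes tested (26.0% above, 25.2% below) and 57.4% of those with a protein-coding transcript (27.5% above, 29.9% below). The median log2 change of the tested members was 0.06, against 0.00 for all genes. The 31, the 11 and this median include *ABCA13*, *ABCA4* and the *ABCF2* read-through gene. Numbers of members raised under the alternatives below also count them where they are called.

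Changes are relative to the TMM scaling. With total counts in place of TMM, the median over all genes went from 0.00227 to -0.182 (log2) and that over the members from 0.0571 to -0.128, and the members' calls became 7 raised and 12 lowered (over all genes, 12.9% raised and 26.6% lowered). Where the call or direction of a member described below moved with the scaling, this is said beside it. The number lowered was 5 without DMSO replicate 2 and 5 without DSF/Cu replicate 2, and the number raised was 6 without DSF/Cu replicate 1. Of the 15 called members that passed the filter in both groups, 7 kept direction and call under all 11 alternatives: *ABCA1*, *ABCC2* and *ABCC9* among the raised, and *ABCA2*, *ABCB10*, *ABCC10* and *ABCF2* among the lowered.

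**Figure D2:**
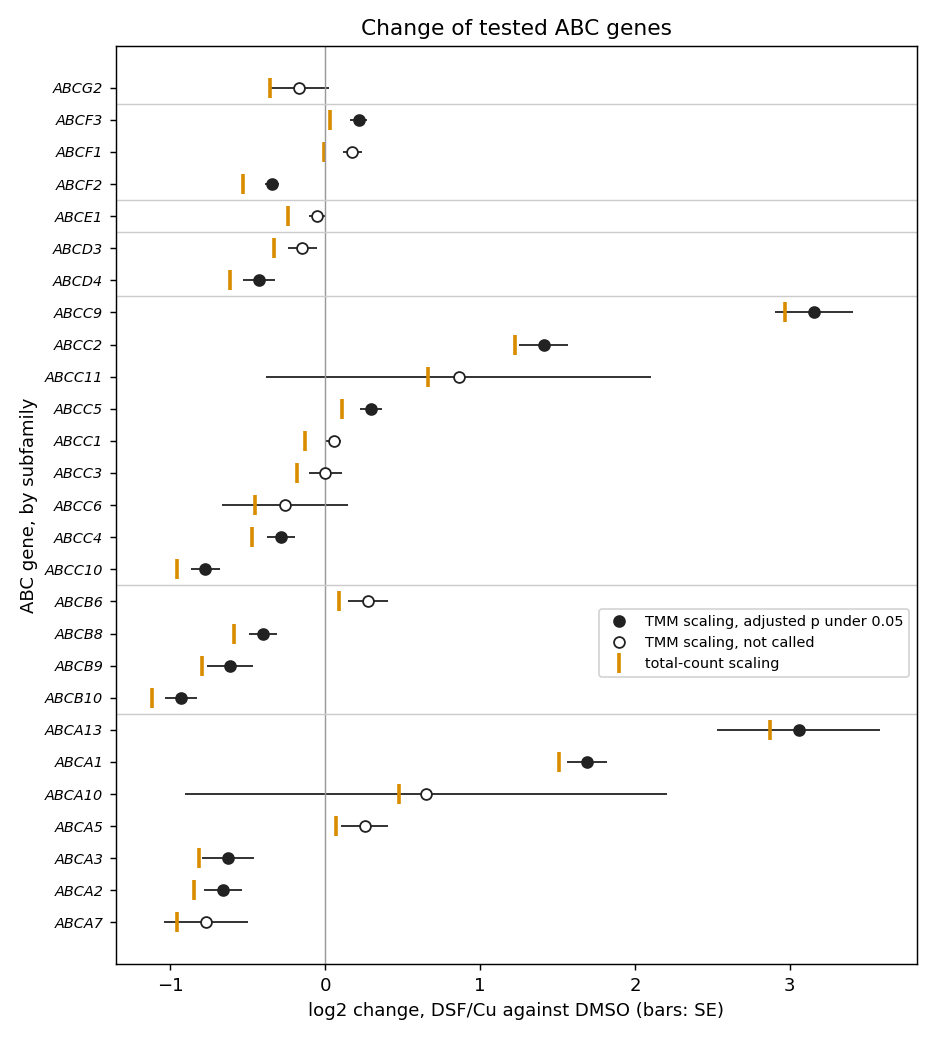
Log2 change of 27 tested ABC genes after DSF/Cu against DMSO, by subfamily, with SE bars; filled points are called with TMM scaling (edgeR adjusted p under 0.05), open points are not, and orange ticks give the change under total-count scaling. The ticks lie to the left of the points throughout, and *ABCA4* and the *ABCF2* read-through gene, without counts in DMSO, are not plotted. *ABCA13* passed the count filter only through DSF/Cu.

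Among the ABCA lipid transporters, 8 members were tested: *ABCA1* rose, 2 fell, 3 were not called, and *ABCA13* and *ABCA4* passed the filter only through DSF/Cu. *ABCA1*, which loads cellular cholesterol and phospholipid onto apolipoprotein A-I, held 3.44, 3.86 and 3.90 CPM in DMSO and 11.2, 11.7 and 13.3 after DSF/Cu. Every DSF/Cu library lay above every DMSO library, and the gene rose 3.23-fold, by 1.69 ± 0.13 (log2, SE, edgeR adjusted p = 0.000271). *ABCA2*, a lipid transporter of endosomes and lysosomes, held 19.5, 17.1 and 16.1 CPM in DMSO and 11.7, 11.8 and 9.89 after DSF/Cu. It was 1.58-fold lower, with a change of -0.66 ± 0.12 (log2, SE, edgeR adjusted p = 0.00748) and no overlap of groups. *ABCA3*, a transporter of phospholipid into lamellar bodies best known from the lung, held 13.7, 12.1 and 10.97 CPM in DMSO and 6.54, 7.90 and 9.36 after DSF/Cu. It was 1.55-fold lower, at -0.63 ± 0.17 (log2, SE, edgeR adjusted p = 0.0273), but was no longer called without DMSO replicate 1 (adjusted p = 0.0839), without DMSO replicate 2 (0.0690), without DSF/Cu replicate 1 (0.0639) or without DSF/Cu replicate 2 (0.0743). Counts of *ABCA1* over those of *ABCA2*, a ratio free of the scaling between libraries, were 0.176, 0.226 and 0.242 in DMSO and 0.959, 0.993 and 1.34 after DSF/Cu. Total exon lengths of these genes are close, 11350 bases for *ABCA1* and 11514 for *ABCA2*. The ratio is given to show how far their balance moved.

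In DMSO *ABCA3* and *ABCA2* led the subfamily by FPKM, and after DSF/Cu *ABCA1* had drawn level with them. The share of *ABCA1* in the summed FPKM of the ABCA genes was 7.60 ± 0.916% in DMSO and 25.8 ± 0.799% after DSF/Cu (SD, n = 3), while that of *ABCA3* was 35.8 ± 2.01% in DMSO and 24.4 ± 3.02% after DSF/Cu (SD, n = 3) and that of *ABCA2* was 34.7 ± 1.54% in DMSO and 23.3 ± 3.48% after DSF/Cu (SD, n = 3). Further ABCA genes were rare. *ABCA13*, the largest protein of the subfamily, had 19, 4 and 12 counts in DMSO and 79, 66 and 85 after DSF/Cu. Its fitted change was 3.06 ± 0.53 (log2, SE), from a level under 0.02 FPKM. *ABCA4*, the retinoid transporter of photoreceptors, had 0, 0 and 0 counts in DMSO and 34, 16 and 12 after DSF/Cu, at least 25.9-fold higher if DMSO is set at 3 counts over its 3 libraries. *ABCA7*, a phospholipid transporter close to *ABCA1* in sequence, held 2.14, 2.70 and 2.18 CPM in DMSO and 1.84, 1.21 and 1.06 after DSF/Cu. Its groups did not overlap, yet it was not called (log2 change -0.77 ± 0.27, SE, edgeR adjusted p = 0.0683). It was called lower under total-count scaling (-0.96, adjusted p = 0.0258), with DESeq2 (adjusted p = 0.0192) and without DSF/Cu replicate 1 (0.0275). *ABCA5*, at 0.568 FPKM in DMSO, had a change of 0.26 ± 0.15 with overlapping groups, and *ABCA10* was not called, with 45, 0 and 28 counts in DMSO and 0, 52 and 37 after DSF/Cu.

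None of the 5 tested ABCB members rose and 3 fell. The paired-chain transporters of mitochondria, *ABCB8*, *ABCB10* and others (*ABCB6* has also been placed at other membranes), are tied to haem and iron-sulfur cluster work. *ABCB10*, which supports haem synthesis in the inner membrane, held 37.9, 40.4 and 44.6 CPM in DMSO and 19.2, 22.4 and 22.8 after DSF/Cu. The groups lay far apart, and the gene was 1.91-fold lower, with a change of -0.93 ± 0.10 (log2, SE, edgeR adjusted p = 0.000938). *ABCB8* held 23.1, 20.1 and 21.8 CPM in DMSO and 16.9, 16.5 and 15.8 after DSF/Cu. It was 1.32-fold lower (log2 change -0.40 ± 0.09, SE, edgeR adjusted p = 0.0147), without overlap, and was no longer called without DSF/Cu replicate 3 (adjusted p = 0.0511). *ABCB6*, a porphyrin transporter, held 19.9, 14.98 and 17.9 CPM in DMSO and 22.4, 19.5 and 22.2 after DSF/Cu, with a change of 0.28 ± 0.13 (log2, SE, edgeR adjusted p = 0.145) that was not called. It shares 54.7% of its exon bases with a protein-coding gene on the same strand, named AC068946.2 (21 to 275 counts in DMSO and 25 to 73 after DSF/Cu), so reads could be split between them.

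*ABCB10* took 50.3 ± 2.41% in DMSO and 33.8 ± 2.79% after DSF/Cu (SD, n = 3) of the summed FPKM of the ABCB genes, and *ABCB6* took 17.7 ± 2.40% in DMSO and 27.4 ± 1.77% after DSF/Cu (SD, n = 3). Libraries of the 2 groups did not overlap in either share. A lower share of 1 member raises those of the others by construction. *ABCB9*, the lysosomal peptide transporter TAPL, held 8.76, 8.09 and 8.19 CPM in DMSO and 4.999, 4.92 and 6.45 after DSF/Cu. It was 1.53-fold lower (log2 change -0.61 ± 0.15, SE, edgeR adjusted p = 0.0202) and was no longer called without DMSO replicate 1 (adjusted p = 0.0627), without DMSO replicate 2 (0.0514), without DMSO replicate 3 (0.0507), without DSF/Cu replicate 1 (0.0612) or without DSF/Cu replicate 2 (0.0639). Its exons overlap opposite-strand exons of *OGFOD2* and *ARL6IP4*, which had 801 to 1050 counts in DMSO and 432 to 515 after DSF/Cu and 3055 to 3745 counts in DMSO and 2133 to 2633 after DSF/Cu. *ABCB9* itself had 668, 542 and 541 counts in DMSO and 282, 284 and 341 after DSF/Cu. Counts of *OGFOD2* and *ARL6IP4* were lower after DSF/Cu too. The opposite-strand AC026362.1 shares more, 20.7% of the exon bases of *ABCB9* (12.5% for *OGFOD2*, 12% for *ARL6IP4*). It had 147, 233 and 195 counts in DMSO and 301, 238 and 267 after DSF/Cu. The part of these neighbours in the result was not tested. The strand setting of the counting is not given in the sources used here, so the counts of *ABCB9* are uncertain.

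*ABCB1*, whose product P-glycoprotein pumps many unrelated drugs out of cells, was too low to test, with 0, 0 and 0 counts in DMSO and 15, 4 and 0 after DSF/Cu. A count of 3 in 1 library would be 0.0394 to 0.0567 CPM, a limit that covers counting error only. *ABCB4*, the phosphatidylcholine exporter of bile, had 0, 4 and 0 counts in DMSO and 0, 0 and 2 after DSF/Cu. *ABCB5* and the bile salt export pump *ABCB11* had no count.

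The ABCC subfamily gave 3 rises and 2 falls among 9 tested members. *ABCC2* (MRP2), which exports glutathione and glucuronide conjugates at apical membranes, held 4.26, 3.83 and 5.10 CPM in DMSO and 12.8, 11.9 and 10.3 after DSF/Cu. All DSF/Cu libraries were above all DMSO libraries, and the gene rose 2.66-fold, by 1.41 ± 0.16 (log2, SE, edgeR adjusted p = 0.00104). *ABCC1* (MRP1), the exporter of glutathione conjugates with the highest level here, held 84.95, 84.2 and 82.2 CPM in DMSO and 87.5, 87.2 and 86.8 after DSF/Cu. These values did not overlap but were close, and the change of 0.06 ± 0.05 (log2, SE, edgeR adjusted p = 0.418) was not called; under total-count scaling it was -0.13 (adjusted p = 0.0954). *ABCC3* (MRP3), a basolateral exporter of glucuronides and bile acids, held 24.7, 19.9 and 23.3 CPM in DMSO and 21.6, 24.3 and 22.03 after DSF/Cu. Its groups overlapped (log2 change 0.00 ± 0.11, SE, edgeR adjusted p = 0.989). Under total-count scaling the change was -0.183 (adjusted p = 0.260), also not called. *ABCC4* (MRP4), which exports cyclic nucleotides and prostaglandins, held 48.1, 42.5 and 42.1 CPM in DMSO and 34.03, 35.8 and 39.1 after DSF/Cu. It was 1.22-fold lower (log2 change -0.28 ± 0.09, SE, edgeR adjusted p = 0.0462), near the threshold: the call was lost with RLE scaling (adjusted p = 0.0525), with no count filter (0.0647) and without DMSO replicate 1 (adjusted p = 0.119), without DMSO replicate 2 (0.0792), without DMSO replicate 3 (0.0693), without DSF/Cu replicate 1 (0.123) or without DSF/Cu replicate 2 (0.119).

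*ABCC5* (MRP5), another exporter of cyclic nucleotides, held 58.1, 51.1 and 51.6 CPM in DMSO and 66.5, 63.6 and 67.3 after DSF/Cu. It was 1.23-fold higher (log2 change 0.29 ± 0.07, SE, edgeR adjusted p = 0.0199), but was not called under total-count scaling (0.11, adjusted p = 0.315), with no count filter (adjusted p = 0.0502) or without DMSO replicate 2 (adjusted p = 0.0745), without DMSO replicate 3 (0.0744), without DSF/Cu replicate 1 (0.0532) or without DSF/Cu replicate 3 (0.0576). *ABCC10* (MRP7), a broad drug exporter, held 22.9, 23.4 and 24.6 CPM in DMSO and 12.8, 13.96 and 14.8 after DSF/Cu. It was 1.71-fold lower (log2 change -0.77 ± 0.09, SE, edgeR adjusted p = 0.00127), with no overlap. Counts of *ABCC5* over those of *ABCC10* were 2.53, 2.18 and 2.10 in DMSO and 5.20, 4.55 and 4.55 after DSF/Cu. Counts of *ABCC2* over those of *ABCC1* were 0.0502, 0.0455 and 0.0621 in DMSO and 0.147, 0.137 and 0.119 after DSF/Cu. The balance within the subfamily thus differed between groups in every library, while *ABCC1* kept the highest share of its summed FPKM, 41.1 ± 1.28% in DMSO and 41.1 ± 0.567% after DSF/Cu (SD, n = 3).

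*ABCC9* encodes SUR2, a subunit that regulates potassium channels gated by ATP and is not known as a pump. It is named here after its values were seen, its level being below 1 FPKM in both groups. It held 1.42, 1.21 and 0.787 CPM in DMSO and 10.4, 8.92 and 11.2 after DSF/Cu, with 108, 81 and 52 counts in DMSO and 585, 515 and 593 after DSF/Cu. It rose 8.91-fold, by 3.16 ± 0.25 (log2, SE, edgeR adjusted p = 0.000295), and the range of its change over the 11 alternatives was 2.95 to 3.34. Its share in the summed FPKM of the ABCC genes was 0.360 ± 0.0925% in DMSO and 3.12 ± 0.335% after DSF/Cu (SD, n = 3). The related SUR1 gene *ABCC8* had 0, 0 and 0 counts in DMSO and 8, 0 and 0 after DSF/Cu and was not tested. *ABCC6*, an exporter of ATP in liver, had 60, 43 and 37 counts in DMSO and 46, 26 and 21 after DSF/Cu. It was not called (-0.26 ± 0.40), and its pseudogenes could share its reads. *ABCC11* had 23, 0 and 4 counts in DMSO and 15, 19 and 4 after DSF/Cu and was not called, and *ABCC12* had 8 counts in DMSO replicate 2 and 0 elsewhere.

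**Figure D3:**
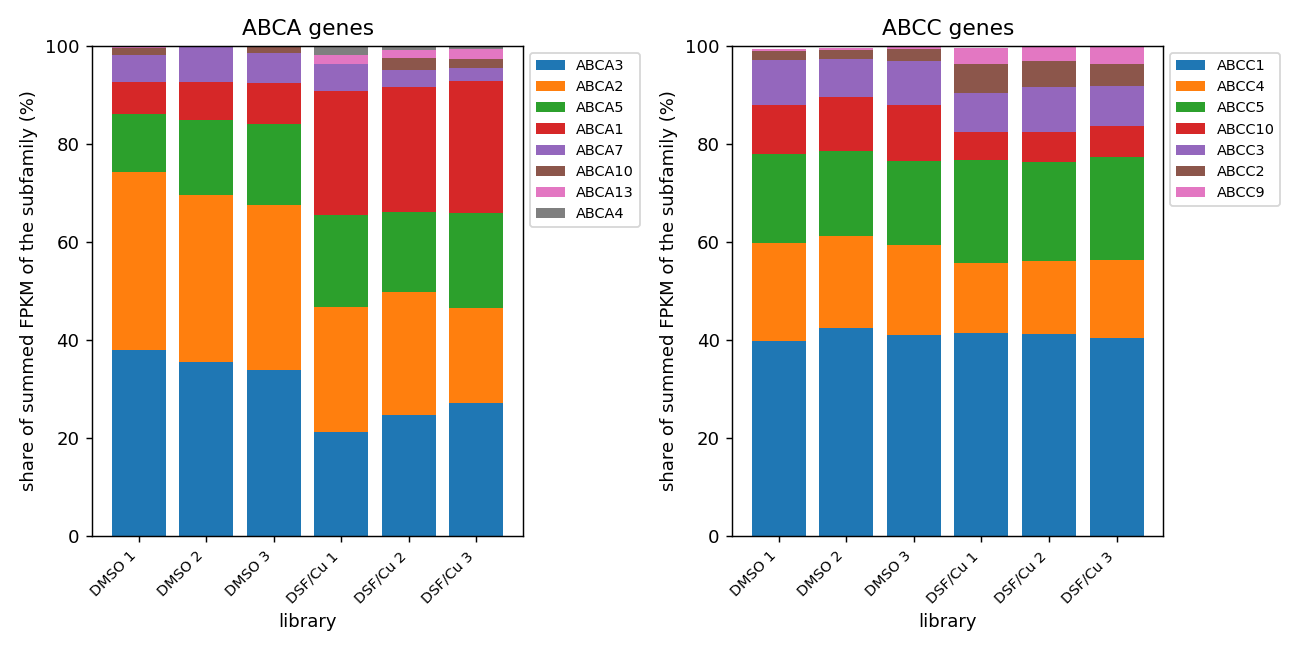
Share (%) of each gene in the summed FPKM of the ABCA genes (left) and the ABCC genes (right), 1 bar per library; genes with a mean share of at least 1% in a group are drawn. *ABCA1* takes a larger share in all 3 DSF/Cu libraries than in any DMSO library, and *ABCC2* and *ABCC9* widen after DSF/Cu while *ABCC10* narrows.

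Of the ABCD members, *ABCD4* fell and *ABCD3* was not called. *ABCD3* (PMP70), the peroxisomal importer of branched-chain and other fatty acids and the subfamily's most abundant member, held 122, 133 and 135 CPM in DMSO and 102, 126 and 126 after DSF/Cu. Its groups overlapped (log2 change -0.15 ± 0.10, SE, edgeR adjusted p = 0.296), and it was called lower only under total-count scaling (-0.33, adjusted p = 0.0475) among the alternatives. *ABCD4*, which serves vitamin B12 release from lysosomes, held 48.98, 43.9 and 38.9 CPM in DMSO and 34.00, 30.3 and 33.5 after DSF/Cu. It was 1.35-fold lower (log2 change -0.43 ± 0.10, SE, edgeR adjusted p = 0.0189) and was no longer called without DMSO replicate 2 (adjusted p = 0.0558) or without DSF/Cu replicate 2 (0.0623). *ABCD2* had no count.

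Of the ABCE and ABCF members, *ABCF3* rose, *ABCF2* fell, *ABCE1* and *ABCF1* were not called, and the *ABCF2* read-through gene passed the filter only through DSF/Cu. *ABCE1*, which splits ribosomes after translation ends, held 193, 209 and 200.5 CPM in DMSO and 186, 198 and 198 after DSF/Cu. The groups overlapped, and the change of -0.05 ± 0.05 (log2, SE, edgeR adjusted p = 0.508) was not called; under total-count scaling it was called lower, at -0.24 (adjusted p = 0.0193). *ABCF1*, which binds initiation factor eIF2, held 235, 234 and 208 CPM in DMSO and 254, 261 and 249 after DSF/Cu. Its groups did not overlap, but it was not called (log2 change 0.18 ± 0.06, SE, edgeR adjusted p = 0.0717). DESeq2 called it raised (adjusted p = 0.00787), and under total-count scaling its change was -0.00969. *ABCF3* held 96.9, 91.9 and 89.5 CPM in DMSO and 111, 106 and 106 after DSF/Cu. It was 1.16-fold higher (log2 change 0.22 ± 0.06, SE, edgeR adjusted p = 0.0238), but not called under total-count scaling (0.03, adjusted p = 0.710), with no count filter (0.0684) or without DMSO replicate 2 (adjusted p = 0.0823), without DMSO replicate 3 (0.0880), without DSF/Cu replicate 1 (0.0602) or without DSF/Cu replicate 2 (0.0546).

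*ABCF2* held 272, 271 and 258 CPM in DMSO and 212, 210.3 and 209.6 after DSF/Cu. Libraries within a group were close and the groups far apart, and the gene was 1.27-fold lower (log2 change -0.34 ± 0.05, SE, edgeR adjusted p = 0.00193). The second row named *ABCF2* (ENSG00000285292, GRCh38 chr7:151207837-151227166, minus strand) is a read-through gene that the reference names *ABCF2-H2BK1*. It shares 1914 exon bases with *ABCF2*, 87.6% of its own, and 271 (12.4%) with AC021097.3 on the same strand. AC021097.3 had 0, 0 and 0 counts in DMSO and 0, 4 and 3 after DSF/Cu. The read-through gene had 0, 0 and 0 counts in DMSO and 115, 336 and 118 after DSF/Cu. This is at least 238-fold higher if DMSO is set at 3 counts over its 3 libraries. DSF/Cu replicate 2 stood well above the other two. Reads of shared exons can be assigned to any gene that shares them, so the read-through counts may be reads of *ABCF2*, and the split was not tested. The read-through gene's counts are few beside those of *ABCF2*, which had 20742, 18142 and 17028 counts in DMSO and 11937, 12143 and 11083 after DSF/Cu.

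*ABCG2*, the breast cancer resistance protein that exports drugs, urate and porphyrins, was the only ABCG member tested. It held 9.25, 9.73 and 7.90 CPM in DMSO and 7.43, 6.41 and 10.04 after DSF/Cu. The groups overlapped, and its change of -0.17 ± 0.19 (log2, SE, edgeR adjusted p = 0.545) was not called under any of the 11 alternatives (log2 change from -0.368 to -0.0329). *ABCG1*, which works beside *ABCA1* in cholesterol efflux, had no count in any library, nor had the sterol transporter *ABCG5*. Its partner *ABCG8* had 0, 0 and 0 counts in DMSO and 7, 0 and 0 after DSF/Cu, and *ABCG4* had 21, 4 and 0 counts in DMSO and 16, 0 and 4 after DSF/Cu. Of the 3 members best known for drug efflux, none was called: *ABCB1* was below the filter, and *ABCC1* and *ABCG2* did not pass the test.

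**Figure D4:**
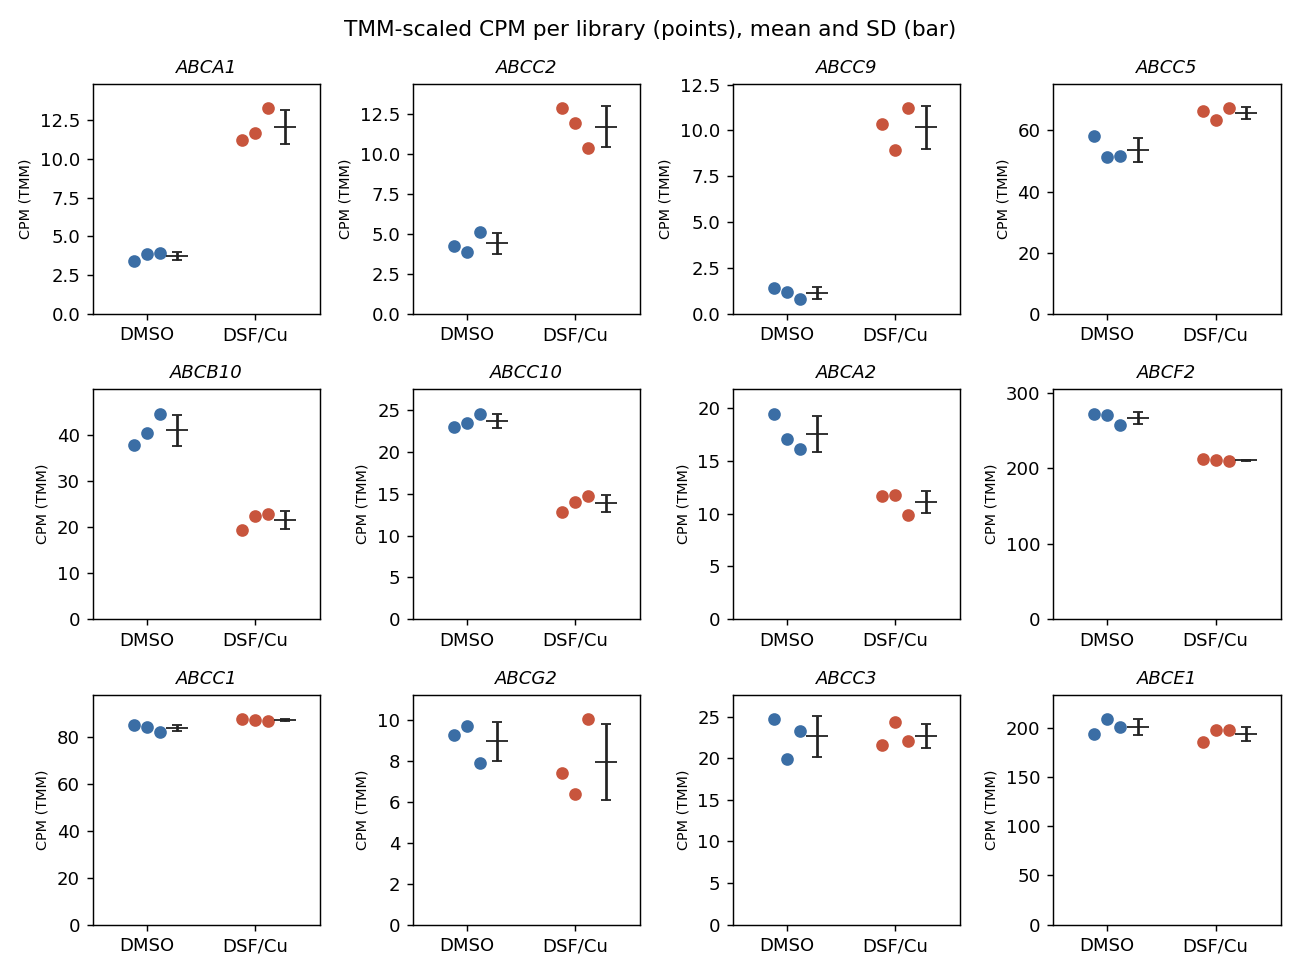
TMM-scaled CPM of 12 ABC genes in each library (points) with mean and SD (bar); axes start at 0. The DSF/Cu points of *ABCA1*, *ABCC2*, *ABCC9* and *ABCC5* (not called under total-count scaling) lie above all DMSO points, those of *ABCB10*, *ABCC10*, *ABCA2* and *ABCF2* lie below, and those of *ABCG2*, *ABCC3* and *ABCE1* overlap; those of *ABCC1* lie just above.

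The remaining members were near or at 0. *ABCA6*, *ABCA9*, *ABCB5*, *ABCB11*, *ABCD2*, *ABCG1* and *ABCG5* had no count in any library. *ABCA8* and *ABCA12* had at most 4 counts in any library.

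Genes that work with the members were followed in lists chosen with earlier results of these data known. Numbers called in each list stand beside 41.9% called among all tested genes with a protein-coding transcript (20.8% raised, 21.1% lowered). Whether any list differs from these shares was not tested. The ABC genes *TAP1*, *TAP2* and *CFTR* go by other symbols. *TAP2*, which with *TAP1* carries peptides into the endoplasmic reticulum for MHC class I, fell by 0.40 ± 0.04 (log2, SE, edgeR adjusted p = 0.000890), from 236, 237 and 235 CPM in DMSO to 182, 176 and 179.7 after DSF/Cu. *TAP1* held 39.04, 37.5 and 38.3 CPM in DMSO and 42.7, 36.6 and 38.7 after DSF/Cu and was not called (log2 change 0.04 ± 0.08, SE, edgeR adjusted p = 0.738). The chloride channel gene *CFTR* had 12, 4 and 0 counts in DMSO and 8, 12 and 0 after DSF/Cu and was not tested.

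In the list of sterol sensing and efflux, 7 of 15 tested genes rose and 3 fell (median log2 change -0.07, and -0.26 under total-count scaling). The 7 include a gene with 52, 6 and 8 counts in DMSO, which passed the filter only through DSF/Cu. *MYLIP*, which degrades the LDL receptor, changed by 1.20 ± 0.12 (log2, SE). *NPC1*, which frees cholesterol from lysosomes, changed by 0.44 ± 0.05 and the HDL receptor *SCARB1* by -0.49 ± 0.05. *SREBF1* (-0.72 ± 0.12) and *LPCAT3* (-0.51 ± 0.10) fell too. LXR activity was not tested. The LXR genes were *NR1H2*, raised by 0.29 ± 0.08 (edgeR adjusted p = 0.0301; 0.10, adjusted p = 0.395 under total-count scaling), and *NR1H3*, not called (-0.18 ± 0.17).

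In the list of conjugation and xenobiotic sensing, 3 of 17 tested genes rose and 5 fell (median log2 change -0.04, and -0.23 under total-count scaling). The glutathione transferase *GSTO1* changed by 0.60 ± 0.06, the aryl hydrocarbon receptor *AHR* by 0.38 ± 0.05, *GSTK1* by -0.41 ± 0.07 and *UGT8* by -0.64 ± 0.11. *NR1I2*, the PXR gene, had 8 counts in DSF/Cu replicate 3 and 0 elsewhere. Of the organic ion carriers, 1 of 10 tested genes rose and 3 fell (median log2 change -0.32, and -0.50 under total-count scaling). *SLCO2B1*, the 1 that rose, had 2, 4 and 19 counts in DMSO and 93, 115 and 86 after DSF/Cu and passed the filter only through DSF/Cu. *SLCO4A1* changed by -1.72 ± 0.35, *SLC47A1* by -0.80 ± 0.22 and *SLC22A3* by -0.40 ± 0.12.

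Of the genes for ribosome splitting and release, 4 of 9 tested genes rose and 3 fell (median log2 change -0.21, and -0.39 under total-count scaling). *PELO* and *HBS1L*, which free stalled ribosomes with *ABCE1*, changed by 0.69 ± 0.06 and 0.53 ± 0.05, the release factor *ETF1* by 0.40 ± 0.05 and *GCN1* by -0.39 ± 0.06. *ABCE1* itself, as given above, was not called. Of the mitochondrial haem partners, 1 of 11 tested genes rose and 4 fell (median log2 change -0.42, and -0.61 under total-count scaling). *ALAS1*, the first enzyme of haem synthesis, rose by 1.11 ± 0.06, while *UROD* (-0.47 ± 0.07), *GLRX5* (-0.43 ± 0.07) and the haem exporter *FLVCR1* (-0.90 ± 0.14) fell. *FECH*, the last enzyme of haem synthesis, was not called (-0.08 ± 0.22). Of the peroxisomal partners, 2 of 12 tested genes rose and 3 fell (median log2 change 0.04, and -0.14 under total-count scaling). The oxidase *ACOX3* (0.54 ± 0.10) rose, and *SLC27A4* (-0.52 ± 0.06) and *EHHADH* (-0.51 ± 0.11) fell. The lists' genes named as changed had edgeR adjusted p from 9.69e-05 (*ALAS1*) to 0.0422 (*SLC22A3*), and among them only *NR1H2* lost its call under total-count scaling.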

How the data were processed

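Poly(A) RNA of 3 DMSO and 3 DSF/Cu samples was analysed from 1 deposited gene table, with columns headed Control taken as DMSO since the labels hold no other untreated samples. Its gene counts, named so per the file headers, are unscaled whole numbers. Its FPKM values were computed by the authors, who list genes without counts at about 0.0001. Bowtie 0.12.2, HISAT2 2.0 and StringTie 1.3.0 are named in the submitters' processing notes without role or order; how reads were counted and whether by strand is not given in the sources used here. A mouse build is noted, but the gene IDs are human: all 46 members occur in GENCODE 29, 42 with their 5′ end within 1 kb and 12 with identical coordinates, so GRCh38 is used.

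Genes were kept by edgeR's filterByExpr (18229 genes), scaled by TMM and tested two-sided with edgeR 4.0.16 (quasi-likelihood F, R 4.3.3). Benjamini-Hochberg adjusted p under 0.05 over all genes made a call. Standard errors are the absolute log2 change over the square root of F. A group with no count was given a floor of 3 counts over the group. Chi-square per degree of freedom between libraries of a group was 45.7 to 58.1, so none is a copy. The steps were also run on simulated counts, with no outcome given here, so that run does not vouch for the calls. Alternatives were total-count and RLE scaling, DESeq2 1.42.0, no count filter, a replicate block and leaving out each library. Full statistics go to called members with a mean of at least 1 FPKM in the higher group and to *ABCA1*, *ABCB1*, *ABCC1*, *ABCG1*, *ABCG2* and *ABCE1*. Other members are given by level. From each partner list up to 4 called genes by adjusted p are given, plus *TAP1*, *TAP2*, *CFTR*, *NR1H2*, *NR1H3*, *NR1I2*, *SREBF1* and *LPCAT3*. *ABCC9*, *ABCA13*, *ABCA4*, *ABCA7*, *ABCB9* and the uncalled members were given more values than this after these were seen. The members and lists were chosen with earlier results of these data known. Some genes are counted in the totals but not reported here.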

Additional observations from a re-analysis of the deposited data

How the results depend on the processing

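Across the 11 alternatives the number of members raised ran from 6 to 10 and the number lowered from 5 to 12. Leaving out 1 library gave 6 to 9 raised, 5 to 8 lowered and a median log2 change of 0.0388 to 0.0661, the smallest number lowered being 5, without DMSO replicate 2 or without DSF/Cu replicate 2. With total-count scaling the median was -0.128, and *ABCC1* (-0.128), *ABCC3* (-0.183) and *ABCF1* (-0.00969) changed sign, none of them called with either scaling. *ABCC3*, at 0.00250 with TMM, was also at -0.0188 with no count filter, -0.0858 without DMSO replicate 2 and -0.0483 without DSF/Cu replicate 2. No called member described here changed sign under any alternative. DESeq2 called 10 raised and 10 lowered.

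The labels state no pairing by replicate number. Deviations of same-numbered libraries from their group means correlated at 0.0214, -0.00775 and 0.0441. No shared deviation was thus seen, which does not settle whether such libraries were handled together. With the replicate block 8 members were raised and 7 lowered, and *ABCA3* (adjusted p = 0.0779) and *ABCC4* (0.107) were among those no longer called. The 15 untested members had at most 21 counts in any library, and 7 of them had none. Whether depth or lack of expression kept them below the filter was not tested.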
